A study of Arabidopsis thaliana with 6 samples.

Results

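Transcript levels of 8 light-receptor and partner genes were set side by side in Arabidopsis thaliana seedlings of wild type and of a phytochrome A mutant. They are the cryptochrome genes CRY1, CRY2 and CRY3, the phototropin genes PHOT1 and PHOT2, the phototropin partner genes NPH3 and RPT2, and UVR8, the gene of the UV-B receptor. The genes were chosen by function through their locus identifiers, with earlier results of these data known. The same holds for all gene lists below, so shares called among them are not independent of these data. All 8 are among the 33557 genes of the authors' deposited table and among the 22892 that the authors tested. The genotypes were wild type and phyA-1, called the mutant below. Both are of the Landsberg erecta (Ler) accession, and phyA-1 is a mutant of PHYA, which encodes the far-red photoreceptor phytochrome A. Seedlings of both genotypes spent 4 days in the dark, followed by far-red light for 3 hours. Polyadenylated RNA of whole seedlings was sequenced from 3 biological replicates per genotype. The comparison asks how transcript levels depend on phytochrome A under far-red light. No group kept in darkness and none under blue or UV-B light was analysed here, so every difference below is one between genotypes after the same far-red treatment. Positions of the 8 genes are those of the authors' deposited table on TAIR10, written from 1. Each level is the authors' pooled value for a genotype in FPKM. By its usual definition, FPKM is fragments per kilobase of transcript, normalised to the mapped total. It allows levels of different genes to be set side by side. Which scaling between genotypes the authors applied is not known here. No values per replicate were used, so levels carry no SD, and depth per library is unknown. A gene is said to have risen or fallen in the mutant, relative to wild type, only where the q-value of the authors' deposited table was at most 0.05. Log2 ratios are phyA-1 over wild type after adding 1 to each FPKM, which understates changes of low levels. Where a pair of levels stands without names, the level in the mutant comes first. In RNA from whole seedlings, fewer cells of a type and less RNA per cell cannot be told apart.

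Cryptochromes are flavin-binding blue-light receptors descended from DNA photolyases. CRY1 and CRY2 act on seedling de-etiolation and on flowering, whereas CRY3 belongs to the cryptochrome-DASH type and is located in chloroplasts and mitochondria. Phototropins are blue-light-activated protein kinases with light-sensing LOV domains that direct bending towards light, chloroplast movement and stomatal opening. NPH3 and RPT2 are plasma-membrane-associated partners of phototropins that share a BTB domain. UVR8 absorbs UV-B through its own tryptophans, dissociates from a dimer and binds the ubiquitin ligase component COP1.

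The phyA-1 mutation went with lower RPT2, CRY3 and PHOT2, higher PHOT1, and no called difference in CRY1, CRY2, NPH3 or UVR8. RPT2 was at 8.63% of its wild-type level in the mutant, CRY3 at 11.8%, PHOT2 at 37.5% and PHOT1 at 161%. The other 4 genes lay between 83.4% and 102% of wild type. These 4 calls were also made at a q-value of 0.01, where 11.5% of all tested genes were called. They were made as well with Benjamini-Hochberg adjustment recomputed over all tested genes (15.5% called) and over the genes with a mean of at least 5 FPKM (20.3% called). Thus 3 of 8 genes fell, where 8.54% of all tested genes did, and 1 of 8 rose, where 8.61% did. Over both directions 17.2% of all tested genes were called. The share was 22.4% among the 6182 tested genes whose mean level lay within the range of the 8 genes. The median log2 ratio of the 8 genes was -0.17, against 0.05 over all tested genes. Each of the 4 calls has p = 5e-05 and q = 0.00045, the lowest values in the authors' deposited table, which 1668 genes share. PHYA itself was at 167 FPKM in wild type and 16.0 in the mutant.

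**Figure D1:**
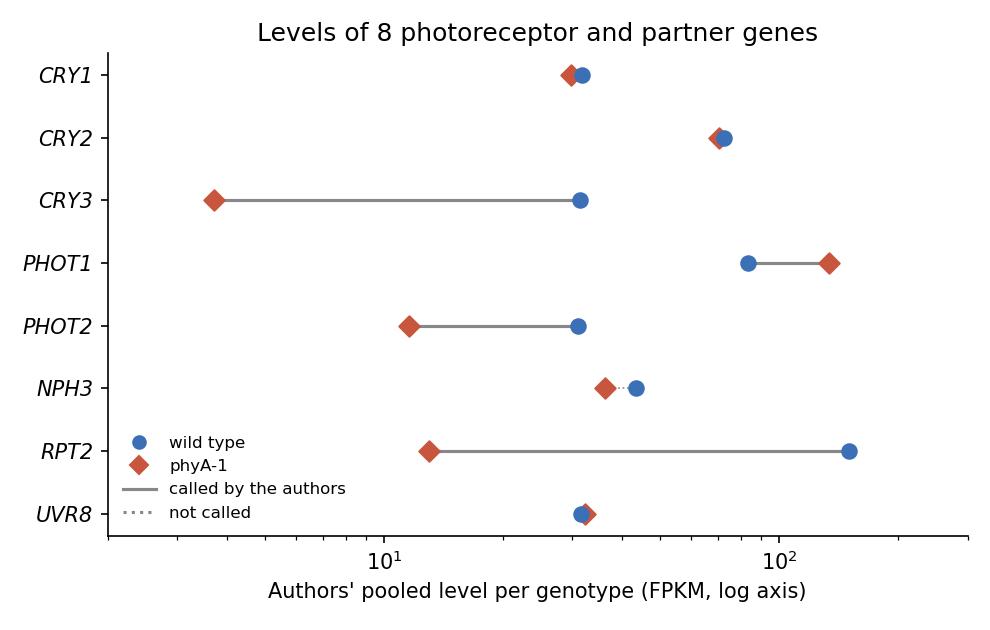
Pooled FPKM of the 8 genes on a log axis, with circles for wild type, diamonds for phyA-1 and a solid line where the authors' test called the difference. RPT2, CRY3 and PHOT2 lie far to the left in the mutant, PHOT1 lies to the right at 134 against 83.2 FPKM, and the symbols of CRY1, CRY2 and UVR8 overlap.

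Among the cryptochromes, CRY1 (AT4G08920, chromosome 4, 5724103 to 5727253) had 29.8 FPKM in the mutant and 31.8 in wild type (log2 ratio -0.09), at q = 0.70 in the authors' deposited table. CRY2 (AT1G04400, chromosome 1, 1185550 to 1188517) had 70.6 and 72.8 FPKM (-0.04), with q = 0.88 there. CRY2 was thus at 2.29 times the level of CRY1 in wild type and at 2.37 times in the mutant. CRY3 (AT5G24850, chromosome 5, 8535282 to 8538107) had 3.72 FPKM in the mutant and 31.4 in wild type and thus fell (log2 ratio -2.78). In wild type, CRY3 stood next to CRY1, which was at 1.01 times its level. In phyA-1, CRY1 was at 8.003 times the level of CRY3. CRY3 gave 23.1% of the summed FPKM of the cryptochrome genes in wild type and 3.57% in the mutant, whereas CRY1 and CRY2 together summed to 105 FPKM in wild type and 100.4 in the mutant. CRY3 had a higher level than 79.5% of tested genes in wild type and than 33.1% in the mutant.

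CRY3 had the lowest ratio of the 7 genes that the annotation names as cryptochromes or photolyases, and genes other than CRY3 fell too. PHR2, annotated as a photolyase and blue-light receptor, had 37.2 FPKM in the mutant and 62.6 in wild type (log2 ratio -0.74). AT4G25290, annotated as a DNA photolyase, had 1.88 and 9.12 FPKM (-1.81). Both fell. PHR1, the photolyase for cyclobutane pyrimidine dimers, had 1.00 and 6.01 FPKM but was not called, with q = 0.085 in the authors' deposited table, and it shares its locus with KEU. UVR3, the photolyase for pyrimidine (6-4) photoproducts, had 1.81 and 2.05 FPKM, with q = 0.65 there. In the wider list of 7 photolyase and LOV-protein genes, 1 fell (PHR2), 1 rose and 5 were not called, with a median log2 ratio of -0.12. Called genes made up 28.6% of that list and 17.2% of all tested genes. The gene that rose was PLPB, which encodes a PAS/LOV protein, at 38.1 and 27.2 FPKM. The LOV-domain F-box genes were not called. ZTL had 11.8 and 14.9 FPKM (deposited q = 0.085, authors' deposited table), while LKP2 and FKF1 had log2 ratios of 0.20 and -0.06.

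Of 11 genes listed as partners of cryptochromes, 10 were tested, 2 fell, 1 rose and 7 were not called (median log2 ratio -0.0019). Over all tested genes 8.54% fell and 8.61% rose. AT3G52740, uncharacterized in the annotation, had 0.575 FPKM in the mutant and 17.2 in wild type (-3.53). AT3G44450, also uncharacterized there, had 0.632 and 3.77 FPKM (-1.55). CIB5, which encodes a bHLH protein that interacts with cryptochrome, rose, with 3.81 FPKM in wild type and 5.53 in the mutant (0.44). The q-value of AT3G52740 was 0.00084 in the authors' deposited table. AT3G44450 had q = 0.013 and CIB5 q = 0.035 there, so both calls were lost at a q-value of 0.01.

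The phototropin genes moved in opposite directions. PHOT1 (AT3G45780, chromosome 3, 16816866 to 16824210), the receptor of higher sensitivity, had 134 FPKM in the mutant and 83.2 in wild type (log2 ratio 0.68). PHOT2 (AT5G58140, chromosome 5, 23524427 to 23533111), which under strong light directs chloroplast avoidance, had 11.6 and 31.0 FPKM (-1.34). PHOT1 was at 2.69 times the level of PHOT2 in wild type and at 11.6 times in the mutant. It gave 72.9% of the summed phototropin FPKM in wild type and 92.0% in the mutant, with sums of 114 and 146 FPKM in that order. Of all tested genes, 96.6% had a lower ratio than PHOT1 and 1.67% a lower one than PHOT2. The deposited locus of PHOT2 also covers AT5G58150, which had 5.91 and 7.35 FPKM and was not called (deposited q = 0.61, authors' deposited table). Some RefSeq transcripts of PHOT2 run through that neighbour, so the PHOT2 level is less certain than that of PHOT1, whose locus holds no other gene of the table.

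Short reads can be assigned to the wrong member of a family where transcripts are identical or nearly so. The coding sequences of PHOT1 and PHOT2 were 65.8% identical over 2701 aligned bases. Their longest identical run had 35 bases and is shown as the longest stretch that both coding sequences share. In PHOT1 it spans coding bases 1666 to 1700, within chr3:16821492-16821649, and in PHOT2 coding bases 1408 to 1442, within chr5:23527287-23527411 (TAIR10.1, plus strand, each across an intron).
Shared run: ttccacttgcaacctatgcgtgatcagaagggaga
The longest identical run was 17 bases between CRY1 and CRY2, and 11 bases between CRY3 and either of them. Between NPH3 and RPT2 it was also 11 bases. Other members of these families were not aligned, so RPT2 and CRY3 were not compared with their remaining relatives. Read length was not given in the sources used here.

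RPT2 (AT2G30520, chromosome 2, 13002742 to 13005600) showed the largest difference of the 8 genes. Its level of 150.3 FPKM in wild type compared with 12.98 in the mutant, which is 11.6-fold lower (log2 ratio -3.44). It was among the 31 tested genes with the lowest ratios, and among called falls reaching 5 FPKM in either genotype it ranked 15. CRY3 ranked 42 and PHOT2 302 in the same order. NPH3 (AT5G64330, chromosome 5, 25727337 to 25733313), the founding member of the family and required for phototropism, had 36.3 and 43.5 FPKM (-0.26; deposited q = 0.40, authors' deposited table). RPT2 was therefore at 3.46 times the level of NPH3 in wild type, whereas in the mutant NPH3 was at 2.79 times the level of RPT2. RPT2 gave 77.6% of their summed FPKM in wild type and 26.4% in the mutant. The deposited locus of NPH3 also covers SAC51, which had 36.2 and 35.7 FPKM and was not called, while the locus of RPT2 holds no other gene of the table. How reads were divided between NPH3 and SAC51 was not tested. The NPH3 level, and its order against RPT2, is therefore less certain than the RPT2 level.

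The upstream sequence of RPT2 is shown because it belongs to the gene with the largest difference, and that of PHOT1 because it is the gene that rose. Both cover 300 bases before the RefSeq gene start on assembly TAIR10.1, from the Columbia accession, RPT2 from chr2:13005747-13006046 on the minus strand and PHOT1 from chr3:16816421-16816720 on the plus strand. Capitals mark the letters ACGT, the core of many sites bound by bZIP and bHLH factors.
RPT2: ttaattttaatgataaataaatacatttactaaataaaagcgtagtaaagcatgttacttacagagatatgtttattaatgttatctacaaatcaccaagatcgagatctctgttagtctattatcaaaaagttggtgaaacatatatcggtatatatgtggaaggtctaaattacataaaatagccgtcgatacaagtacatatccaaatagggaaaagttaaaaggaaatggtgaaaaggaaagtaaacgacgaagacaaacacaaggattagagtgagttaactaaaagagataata
PHOT1: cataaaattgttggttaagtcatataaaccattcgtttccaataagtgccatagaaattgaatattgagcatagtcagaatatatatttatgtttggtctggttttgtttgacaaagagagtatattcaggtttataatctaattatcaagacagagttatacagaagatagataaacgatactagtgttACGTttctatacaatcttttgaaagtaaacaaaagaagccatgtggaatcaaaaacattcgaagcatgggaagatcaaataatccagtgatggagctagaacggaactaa
The RPT2 window held no ACGT, and the PHOT1 window held it once, 110 to 107 bases before the start. PHOT2 also held it once, 99 to 96 bases before its start, but 294 of the 300 bases of that window lie in the neighbouring gene AT5G58130, and the sequence is not shown. CRY1, CRY2, NPH3 and UVR8 held no ACGT. Of 27443 windows of the same length before protein-coding genes, 49.0% held ACGT. None of the 7 windows reported here held the G-box CACGTG, bound by the light-signalling factors HY5 and PIFs among others, where 7.09% of all windows did. None held CACGCGC, the site of the phytochrome A pathway factors FHY3 and FAR1, on either strand, where 1.21% of all windows did. None held the I-box GATAAG on either strand, where 14.5% did. Before the starts in the authors' deposited table, GATAAG was found once each for CRY1, CRY2, PHOT1 and NPH3, and ACGT once each for CRY2, PHOT1 and PHOT2. The motif counts therefore depend on the annotated start.

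The NPH3 family has 33 members by annotation. RPT2 had the highest level of them in wild type and was sixth in the mutant, and its ratio was the lowest of the 29 tested. NPH3 was second in level in both genotypes. Besides NPH3 and RPT2, 27 members were tested, of which 6 fell, none rose and 21 were not called, with a median log2 ratio of -0.14. The called share was 22.2%, against 17.2% over all tested genes. AT5G67385 fell from 35.7 FPKM in wild type to 15.0 in the mutant (-1.20). AT1G52770 had 0.341 and 1.31 FPKM (-0.79), and NPY4, of the group that acts in auxin-dependent organ formation, had 1.00 and 1.97 FPKM (-0.57). AT3G22104 (-0.48), AT3G08660 (-0.44) and AT1G67900 (-0.39) fell by less. AT1G30440, at 43.9 and 40.6 FPKM, was not called.

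**Figure D2:**
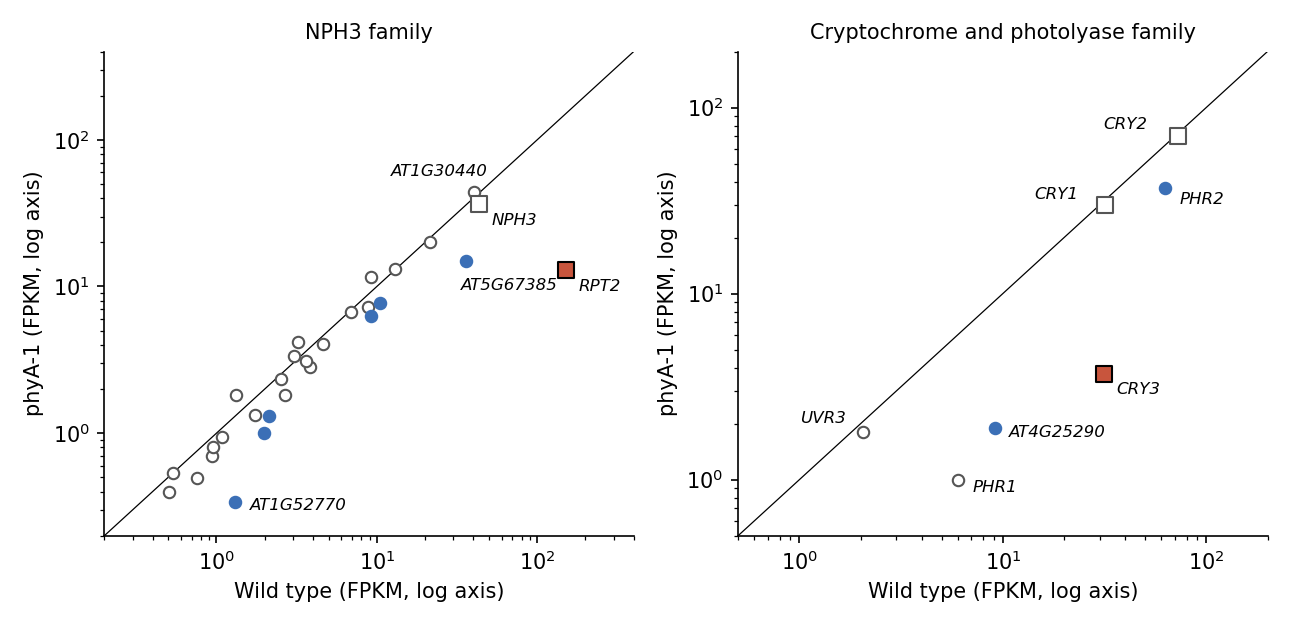
Pooled FPKM in wild type and phyA-1 on log axes for tested genes of the NPH3 family (left) and the cryptochrome and photolyase family (right), with squares for NPH3, RPT2 and the CRY genes, circles for relatives, filled symbols for calls and a line of equal levels. RPT2 and CRY3 lie far below the line, and NPH3, CRY1 and CRY2 lie close to it.

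Genes that act with phototropins fell in 9 of 18 cases (50.0%, against 8.54% of all tested genes), none rose and 9 were not called, with a median log2 ratio of -0.33. PKS1, a phytochrome kinase substrate that also binds phototropin 1, had 7.80 FPKM in the mutant and 43.9 in wild type (-2.35). Genes of chloroplast movement made up most of the rest. JAC1, a J-domain protein of the chloroplast accumulation response, had 2.47 and 10.5 FPKM (-1.73). KAC1, a kinesin-like protein of actin-based chloroplast movement whose locus is shared, had 6.99 and 21.5 FPKM (-1.50). PMI2 had 1.19 and 4.37 FPKM (-1.30), PMI1 had 7.61 and 19.4 (-1.24), and CHUP1, which anchors chloroplasts to the plasma membrane, had 13.4 and 31.7 (-1.19). KAC2 fell by less (-0.42). WEB1 was the only one of these 7 movement genes not called, at 35.0 and 39.7 FPKM, a subgroup formed after the values were seen. The remaining falls were AT5G67385, given above, and AT1G18810, annotated as a phytochrome kinase substrate-like gene, at 0.393 and 1.94 FPKM. PKS2 and PKS4 were not called (-0.15 and 0.11), nor were the plasma membrane proton pump genes HA1 (257 and 226 FPKM) and HA2 (949 and 780 FPKM). The listed genes annotated as protein kinases were not called either: AT3G01490 (-0.24), AT5G50000 (0.16), AT4G18950 (0.09) and AT4G14480 (0.01).

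Of 9 auxin genes that act in phototropism, 1 rose, 1 fell and 7 were not called (median log2 ratio 0.06), a called share of 22.2% beside 17.2% over all tested genes. IAA19, the Aux/IAA repressor whose mutant is massugu 2, rose, with 84.7 FPKM in wild type and 176 in the mutant (1.04). PIN3, an auxin efflux carrier, fell from 118 FPKM to 81.8 in the mutant (-0.53). NPH4, the auxin response factor ARF7, had 16.4 and 21.5 FPKM (deposited q = 0.48, authors' deposited table), and its locus is shared. ABCB19, an auxin transporter that phototropin 1 phosphorylates, had 85.7 and 82.0 FPKM and q = 0.83 there.

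UVR8 (AT5G63860, chromosome 5, 25554508 to 25559499) had 32.3 FPKM in the mutant and 31.6 in wild type, with q = 0.91 in the authors' deposited table, and its log2 ratio of 0.03 turned to -0.041 when centred on the median gene and to -0.0063 when rescaled to equal FPKM sums. It was second in level among the 24 genes annotated as RCC1 family, the fold that UVR8 shares, in both genotypes. Of the other 21 tested genes of that family, 2 fell, none rose and 19 were not called, 9.52% against 17.2% over all tested genes. AT3G53830 had 1.21 and 2.63 FPKM (-0.72), and RUG1 had 4.29 and 7.002 (-0.60). Of 11 genes of the UVR8 and COP1 pathway, 8 fell (72.7%, against 8.54% of all tested genes), none rose and 3 were not called, with a median log2 ratio of -1.99. RUP1 and RUP2, whose proteins return UVR8 to its dimer, had 27.3 and 31.3 FPKM in wild type and 4.52 and 2.62 in the mutant. COP1 had 14.2 and 22.9 FPKM (-0.65). HY5 and HYH, bZIP factors that act downstream of the photoreceptors, fell (-2.21 and -2.95). SPA1, SPA3 and SPA4, whose proteins bind COP1, fell as well (-2.80, -1.99 and -1.16), the loci of SPA3 and SPA4 being shared. SPA2 was not called, at 10.8 and 13.1 FPKM (-0.26). WRKY36 and BIM1, both known to bind UVR8, had log2 ratios of 0.19 and -0.18 and were not called.

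**Figure D3:**
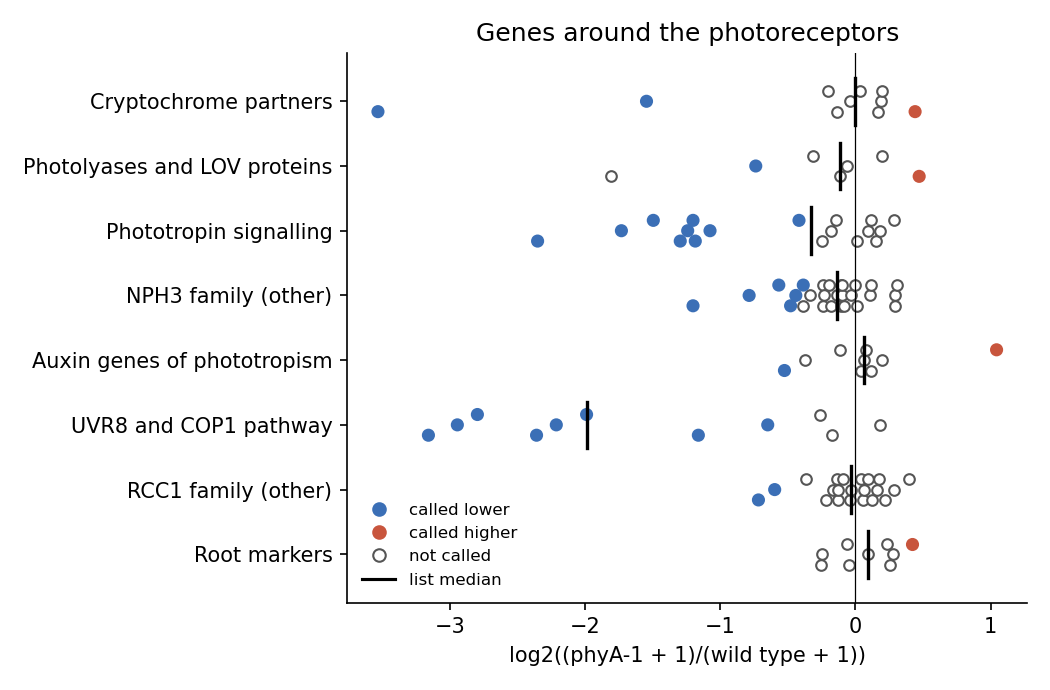
Log2 ratios of the tested genes in lists around the photoreceptors, with blue for called lower, red for called higher, open circles for not called and a bar at the median of each list. The UVR8 and COP1 list has its median at -1.99, the phototropin signalling list at -0.33, and the other 6 lists plotted have medians between -0.14 and 0.09.

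The order of the levels changed with genotype. In wild type it ran RPT2, PHOT1, CRY2, NPH3, CRY1, UVR8, CRY3 and PHOT2, from 150.3 to 31.0 FPKM, and the last 4 lay within a narrow band, each at 1.00 to 1.02 times the next. In phyA-1 it ran PHOT1, CRY2, NPH3, UVR8, CRY1, RPT2, PHOT2 and CRY3, from 134 to 3.72 FPKM. The highest gene was at 4.85 times the lowest in wild type and at 36.1 times in the mutant. RPT2 passed from first to sixth, while PHOT1, CRY2, NPH3 and PHOT2 each moved up by 1 place. UVR8 passed from place 6 to place 4 and CRY3 from place 7 to place 8, and CRY1 kept its place. Without values per replicate, no difference between neighbours in these orders could be tested. All 8 genes exceeded the median tested gene of 8.71 FPKM in wild type, and all but CRY3 exceeded the median of 8.75 FPKM in the mutant.

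**Figure D4:**
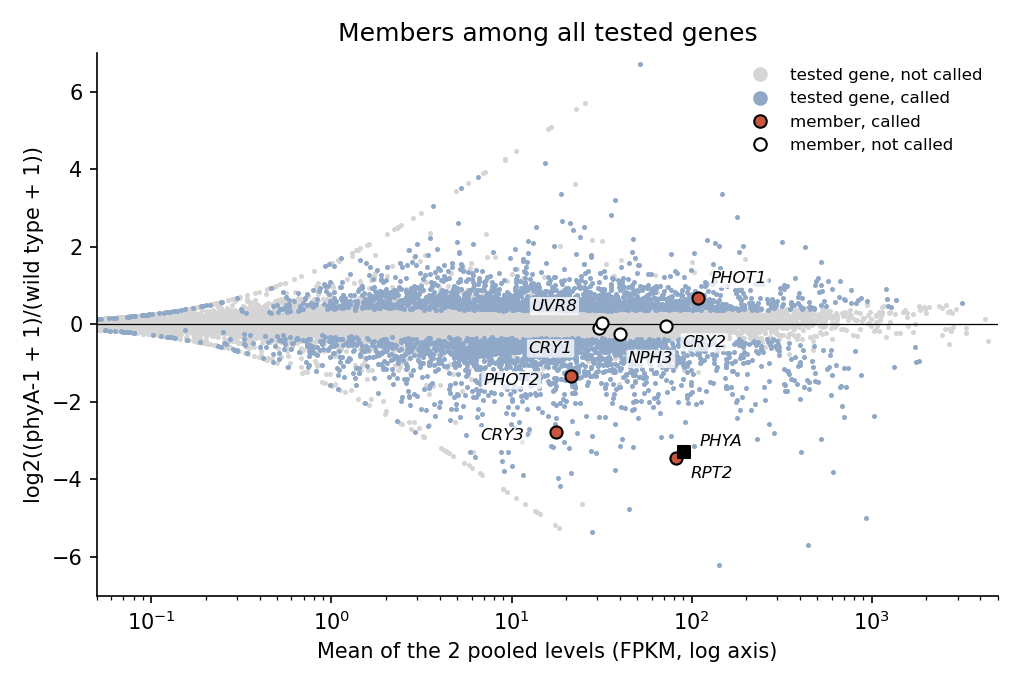
Log2 ratio of every tested gene against its mean pooled FPKM on a log axis, with the 8 genes as large circles, filled where called, and PHYA as a black square. RPT2 lies beside PHYA near the lower edge of the cloud, CRY3 and PHOT2 lie below the main band, and CRY1, CRY2, NPH3 and UVR8 lie within it.

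Markers of organs and cell types served as a check on the makeup of the seedlings. Of 9 root markers, EXPA18 rose (28.3 and 20.9 FPKM) and 8 were not called, where 8.61% of all tested genes rose. Their summed level was 122 FPKM in the mutant and 110 in wild type, and none was at 0. Of 4 epidermal and guard cell markers, the guard cell channel gene KAT1 rose (10.96 and 7.57 FPKM) and 3 were not called, with sums of 752 and 906 FPKM. Most of both sums came from PDF1, which was not called (711 and 863 FPKM). Neither vascular marker was called, SUC2 having 56.7 and 52.5 FPKM. The part of such differences in the results above was not tested. The gene with the highest FPKM, AT2G01021, made up 50.5% of summed FPKM in the mutant and 21.8% in wild type. Rescaling both genotypes to equal sums without it moved the median log2 ratio of tested genes by -0.03.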

How the data were processed

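RNA of 6 seedling samples, 3 per genotype, was analysed through the authors' deposited table of the genotype comparison. Alignment with Bowtie to TAIR10 is named in the submitters' processing notes. Of quantification tool, test and read length, nothing is stated in the sources used here. Per gene the authors deposited 1 pooled FPKM per genotype, a log2 ratio of these, the score of their test, and its p-value with the matching q-value. The table has no header. Genotype labels in each row gave the order of the levels, and position and values identified the other columns.

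A call is a deposited q-value of 0.05 or below, read for 22892 tested genes. Which genes the authors adjusted over is not known. Benjamini-Hochberg recomputed over all 22892 gave RPT2 a q-value of 0.00069, against 0.00045 deposited. Log2 ratios use a pseudocount of 1. The 8 genes and all lists were chosen with earlier results of these data known. Names come from RefSeq (TAIR10.1), matching 32810 identifiers. Named are the 8 genes, PHYA, and up to 6 called genes per list by size of ratio, or else the highest gene. Any further gene was picked with its values in view. One listed identifier, AT1G44750, proved to be a purine permease gene and was left out.

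Another pseudocount, scaling, threshold, adjustment and filter on low values were tried as alternatives. Both reference and upstream windows are of the Columbia accession, the samples of Ler, and the effect of sequence differences on levels was not tested. Upstream windows were read from TAIR10.1 for 7 of the 8 genes, and the remaining one is not reported here. Of 26824 loci with 1 gene, 51.7% shared their lower coordinate with a RefSeq transcript of the gene, whatever the strand. For 30 loci the nearest such coordinate lay over 2000 bases away. RefSeq starts used for the windows lay upstream of the deposited starts by 145 bases (PHOT1) to 602 bases (PHOT2), except for UVR8, where they were equal. Coding sequences were aligned globally with Biopython 1.88 (match 1, mismatch -1, gap -5 and -0.5). The Benjamini-Hochberg and motif functions were tested on simulated data. Python 3.11.15 and pandas 2.3.3 were used.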

Additional observations from a re-analysis of the deposited data

Results flagged for a closer look

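CIB1 (AT4G34530), which encodes a bHLH protein that interacts with cryptochrome 2, was left untested in the authors' deposited table with the status LOWDATA. It stands out because its level there was 15.3 FPKM in phyA-1, above the 8.45 FPKM in wild type. Its locus is shared with AT4G34540.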

How the results depend on the processing

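No paired analysis was possible because the deposited table holds 1 pooled value per genotype, and for the same reason no replicate could be left out. The 4 calls among the 8 genes were the same with a q-value of 0.01, with Benjamini-Hochberg recomputed, and with a mean of at least 5 FPKM. Called log2 ratios kept their sign under every pseudocount and scaling tried, from -3.53 to -3.11 for RPT2, -3.08 to -2.06 for CRY3, -1.42 to -1.12 for PHOT2 and 0.61 to 0.69 for PHOT1. The ratio of UVR8 reversed to -0.041 when centred and to -0.0063 when rescaled. At a q-value of 0.01, rises over all genes numbered 1144 in place of 1971, called cryptochrome partners 1 in place of 3, and called root markers 0 in place of 1. With a mean of at least 5 FPKM, called genes numbered 1 of the cryptochrome partners, 3 of the other NPH3 family in place of 6, and 1 of the other RCC1 family in place of 2, since fewer genes enter. Counts of upstream motifs from the deposited starts were chosen after seeing the data.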
